A study of Arabidopsis thaliana with 6 samples.

Results

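The genes described here belong to cytokinin signalling and cytokinin metabolism in the root apex of Arabidopsis thaliana. They were chosen by gene identifier from 34 listed loci, and the gene comparison held a row of its own for 33 of them among 33233 rows. The 34 loci are 10 type-A response regulators (ARRs), 5 type-B ARRs, 3 receptors, 5 phosphotransfer proteins, 7 cytokinin oxidases and 4 enzymes of the LONELY GUY (LOG) family. The receptor AHK2 (AT5G35750) has no row of its own, because the assembly joined it with the neighbouring locus AT5G35740. RNA-seq was done on roots of wild-type Columbia (Col-0) seedlings aged 8 days and grown in continuous light, fixed in RNAlater before dissection, with 6 libraries in all. Of these 3 libraries came from zone I, the apical 0.5 mm with the root cap and the dividing cells, and 3 from zone II, a 1.5 mm section with the elongation and root hair zones. Both zones are sections of whole root tissue and mix many cell types.

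Cytokinins are hormones derived from adenine that act in the root mainly where dividing cells begin to differentiate. Receptor histidine kinases (AHKs) bind the hormone and pass a phosphate to phosphotransfer proteins (AHPs), which carry it to the nucleus. There the type-B ARRs, which bind DNA, activate target genes, among them the type-A ARRs, which dampen the same pathway. Isopentenyltransferases (IPTs) begin synthesis, LOG enzymes release the active bases, and cytokinin oxidases (CKXs) degrade them.

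The deposited comparison names its conditions control and experiment, and the sources used here do not state which zone each name stands for. Each difference is therefore given as the log2 fold change of experiment over control, with the p and q that the authors' Cuffdiff run gave over all tested loci, and a gene was called at a q under 0.01. Values per library were not analysed here, so depth is unknown, no SD or n can stand beside a value, and levels are not compared between genes. Among markers of the tissues in the sections, 3 of 4 root cap genes and 3 of 3 tested meristem genes were called lower in the experiment condition. All 3 root hair, both xylem genes and the 1 phloem gene were called higher, with log2 fold changes from 4.81 to 8.54 in the authors' deposited table. Of 2 shoot tissue markers, RBCS1A was called higher (3.44) and LHCB1.1 was not called (4.74, q = 0.119) in the authors' deposited table. As zone I holds the root cap and dividing cells and zone II the root hair zone, the experiment condition resembles zone II by these markers. No label states this match, so the condition names are kept. The part of the markers in the results below was not tested. In bulk tissue, fewer cells of a type and less RNA per cell cannot be told apart.

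Most of the tested cytokinin genes had positive fold changes. Of 26 tested genes 8 were called higher and 1 was called lower in the experiment condition. These shares, 30.8% and 3.85% of the tested members, compare with 22.3% called higher and 21.2% called lower over 18050 tested loci. In either direction 34.6% of the tested members were called, against 43.6% of all tested loci. The sign was positive for 20 of the 26 tested members (76.9%), against 49.3% of all tested loci. The median log2 fold change was 0.72 over the tested members and -0.03 over all tested loci, counting genes listed at 0 in 1 condition as beyond any finite fold. The authors did not test 7 of the 33 members in the table (21.2%), against 45.7% of all rows. This share depends on which genes were listed: 5 of 6 further type-B ARRs and 4 of 5 further LOG genes were not tested. At a q under 0.05 there were 13 members called higher and 1 called lower, against 27.8% and 28.0% of all tested loci, or 55.8% in either direction. Under the stricter Benjamini-Yekutieli adjustment at 0.01 the counts of members were again 8 and 1, against 17.6% and 15.2% of all tested loci, or 32.7% in either direction. The genes called higher at a q under 0.01 were 2 receptors, 3 phosphotransfer proteins and 3 type-A ARRs, and the gene called lower was a cytokinin oxidase.

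**Figure D1:**
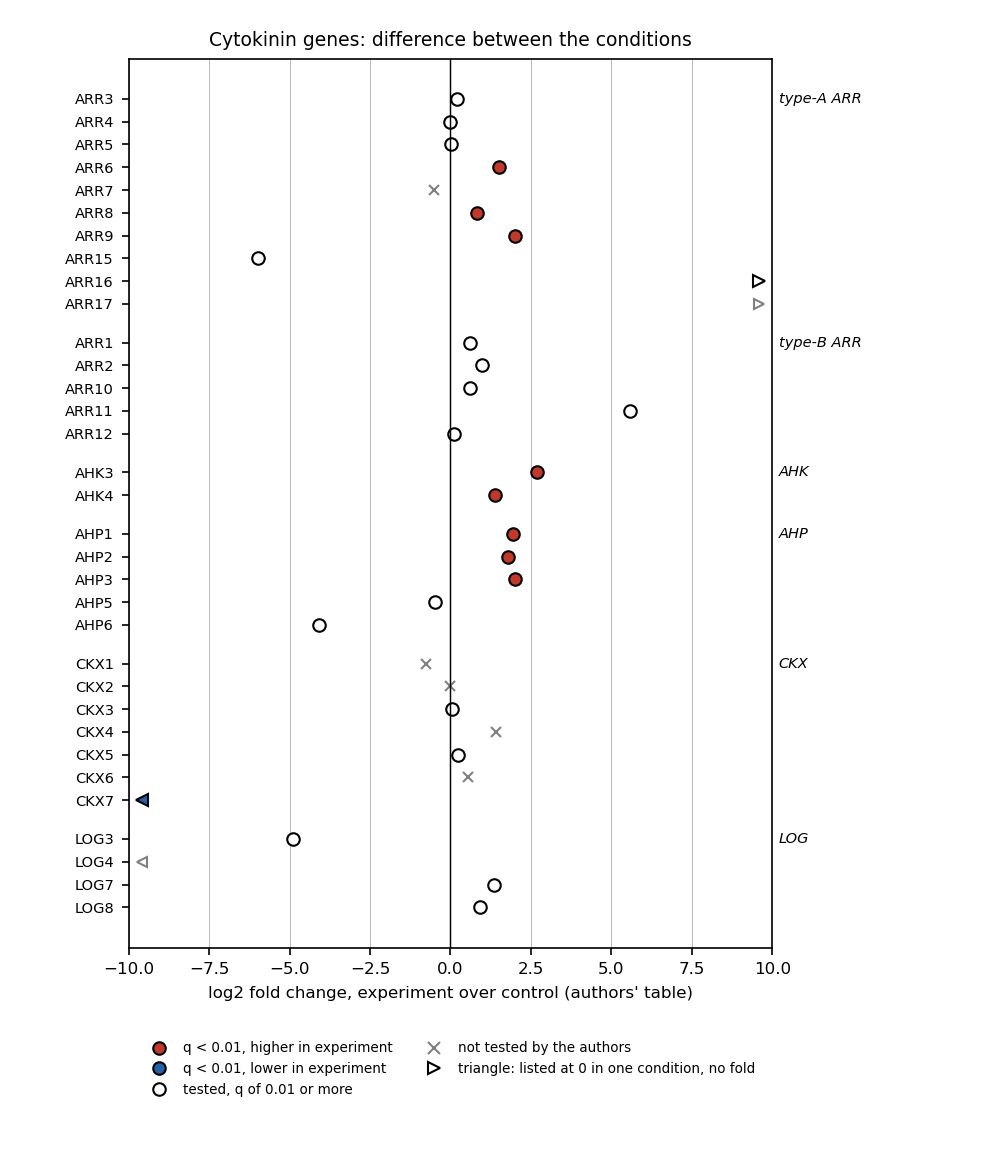
Log2 fold change of experiment over control (x axis) for the 33 cytokinin genes with a row of their own (y axis, by class). Filled circles passed a q under 0.01, open circles were tested and did not pass, crosses and grey triangles were not tested, and triangles at the edge are genes listed at 0 in 1 condition, which have no fold; the 8 genes called higher lie between 0.84 and 2.68.

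Of the 3 receptors 2 were called higher in the experiment condition, and AHK2 had no row of its own. AHK3 (AT1G27320), which also acts in shoot tissues, had a log2 fold change of 2.68 in the authors' deposited table (p = 5e-05, q = 0.000177), above 87.8% of the finite folds of tested loci. AHK4 (AT2G01830), the receptor also known as CRE1 or WOODEN LEG and needed for vascular cell divisions in the root, had 1.39 in the authors' deposited table (p = 5e-05, q = 0.000177). The p of 5e-05 is the smallest in the gene table, so it sets no order among the genes that share it. AHK3 lies on chromosome 1 from 9487780 to 9492572 and AHK4 on chromosome 2 from 362983 to 369707 (TAIR10), and both spans lie within the annotated protein-coding genes, which have up to 11 exons.

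AHK2, the remaining receptor, could be read only indirectly. The joined locus of AHK2 and AT5G35740 stood at -1.52 in the authors' deposited table (q = 0.0133) and was not called. The isoform table separates them, and there the 1 tested isoform named as AHK2 had 1.98 in the authors' deposited table of isoforms (q = 0.00375) and was called higher. The tested isoforms of the same assembled locus named as AT5G35740 had -2.53 (q = 0.251) and -1.22 (q = 0.138) in the authors' deposited table of isoforms. The value of the joined locus and that of the AHK2 isoform thus have opposite signs, and the isoforms of the neighbour have the sign of the joined locus.

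Of the 5 phosphotransfer proteins 3 were called higher, and these had nearly equal fold changes. AHP3 (AT5G39340) had a log2 fold change of 2.01, AHP1 (AT3G21510) of 1.96 and AHP2 (AT3G29350) of 1.80 in the authors' deposited table, each with q = 0.000177. These proteins are positive, partly redundant carriers of the signal. AHP5 (AT1G03430), a further positive carrier, had -0.48 in the authors' deposited table (p = 0.151, q = 0.210) and was not called. AHP6 (AT1G80100), a pseudophosphotransfer protein that lacks the histidine that accepts phosphate and that inhibits the pathway near the protoxylem, had -4.09 in the authors' deposited table (p = 0.232, q = 0.300) and was not called either. The differences between these 5 fold changes were not tested. AHP1 lies on chromosome 3 from 7578175 to 7579635, AHP2 on chromosome 3 from 11264147 to 11265567 and AHP3 on chromosome 5 from 15748851 to 15750507 (TAIR10). The span of AHP2 passes its annotated gene by 5 bases, and the annotated gene of AHP3 overlaps AT5G39350 on the same strand.

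Among the 8 tested type-A ARRs 3 were called higher, none was called lower and 5 did not pass. ARR9 (AT3G57040) had a log2 fold change of 2.01 (q = 0.000177), ARR6 (AT5G62920) of 1.50 (q = 0.000177) and ARR8 (AT2G41310) of 0.84 (p = 1e-04, q = 0.000338) in the authors' deposited table. ARR3 (AT1G59940), ARR4 (AT1G10470) and ARR5 (AT3G48100) had folds close to 0 in the authors' deposited table, at 0.22 (q = 0.444), -0.03 (q = 0.921) and 0.01 (q = 0.982). These 6 genes are known as negative regulators of the cytokinin response with overlapping roles. They form sister pairs by sequence, and within these pairs ARR5 (0.01) stood beside ARR6 (1.50), ARR8 (0.84) beside ARR9 (2.01) and ARR3 (0.22) beside ARR4 (-0.03) in the authors' deposited table. The differences within pairs were not tested. The annotated genes ARR6, ARR8 and ARR9 each overlap a gene on the opposite strand (AT5G62910, AT2G09250 and AT3G08825), and since the library kit does not mark strand, reads of the partners cannot be told apart.

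None of the other 4 type-A ARRs was called, and 2 of them were not tested. ARR15 (AT1G74890), which auxin induces in the embryonic root, had -5.99 in the authors' deposited table but p = 0.126 and q = 0.180, so it was not called. Its sister gene ARR7 (AT1G19050) was not tested, with a fold of -0.52 in the authors' deposited table. ARR16 (AT2G40670) did not pass (p = 0.120, q = 0.173), and the authors' deposited table lists a 0 for it under the control condition. The same holds for its sister ARR17 (AT3G56380), which was not tested. The median log2 fold change of the 8 tested type-A ARRs was 0.53.

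The sequences before the annotated starts are shown for all 9 called genes, and for ARR5 as the uncalled sister of ARR6, because type-A ARRs are known as direct targets of type-B ARRs and 3 carriers were called in the same direction. They are the 250 bases before the gene start in the RefSeq annotation of TAIR10.1, written 5′ to 3′ on the strand of the gene. Capitals mark matches, on either strand, to the core motif of type-B ARRs, which is AGAT, then A, C or T, then C or T. For the receptors they are chr1:9486639-9486888 on the plus strand for AHK3 and chr2:369708-369957 on the minus strand for AHK4. For the phosphotransfer proteins they are chr3:7579790-7580039 on the minus strand for AHP1, chr3:11265563-11265812 on the minus strand for AHP2 and chr5:15748481-15748730 on the plus strand for AHP3. For the type-A ARRs they are chr3:17760951-17761200 on the minus strand for ARR5, chr5:25254319-25254568 on the minus strand for ARR6, chr2:17221590-17221839 on the plus strand for ARR8 and chr3:21108809-21109058 on the plus strand for ARR9. The oxidase sequence is chr5:7226356-7226605 on the plus strand for CKX7. A match on the strand opposite to the gene reads as its reverse complement, for example AAATCT. The called genes AHK3, AHP2 and ARR8 have no match in these bases, nor has ARR5.
AHK3: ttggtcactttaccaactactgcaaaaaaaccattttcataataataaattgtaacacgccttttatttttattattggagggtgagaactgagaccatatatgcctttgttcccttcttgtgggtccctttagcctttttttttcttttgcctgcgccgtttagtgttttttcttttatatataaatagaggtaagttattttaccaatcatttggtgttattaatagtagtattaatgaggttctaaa
AHK4: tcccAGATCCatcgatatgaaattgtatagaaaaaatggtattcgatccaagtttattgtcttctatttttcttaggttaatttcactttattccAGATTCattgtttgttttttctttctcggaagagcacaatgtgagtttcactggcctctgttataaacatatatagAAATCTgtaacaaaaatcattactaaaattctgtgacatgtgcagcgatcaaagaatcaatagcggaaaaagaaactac
AHP1: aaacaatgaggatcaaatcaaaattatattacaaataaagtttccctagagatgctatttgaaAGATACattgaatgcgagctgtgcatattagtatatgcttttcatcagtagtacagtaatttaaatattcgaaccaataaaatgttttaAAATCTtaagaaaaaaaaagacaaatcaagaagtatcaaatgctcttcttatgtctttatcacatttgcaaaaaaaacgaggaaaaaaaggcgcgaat
AHP2: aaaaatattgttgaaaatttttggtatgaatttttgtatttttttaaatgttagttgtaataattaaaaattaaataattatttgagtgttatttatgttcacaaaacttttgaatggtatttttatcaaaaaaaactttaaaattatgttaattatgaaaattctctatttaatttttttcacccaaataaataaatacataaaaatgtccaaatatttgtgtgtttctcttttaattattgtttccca
AHP3: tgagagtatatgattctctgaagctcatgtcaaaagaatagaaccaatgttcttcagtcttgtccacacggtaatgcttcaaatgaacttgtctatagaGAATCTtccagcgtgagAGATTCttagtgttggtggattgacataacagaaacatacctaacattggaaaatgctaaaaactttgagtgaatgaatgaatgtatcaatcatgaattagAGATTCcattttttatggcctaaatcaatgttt
ARR5: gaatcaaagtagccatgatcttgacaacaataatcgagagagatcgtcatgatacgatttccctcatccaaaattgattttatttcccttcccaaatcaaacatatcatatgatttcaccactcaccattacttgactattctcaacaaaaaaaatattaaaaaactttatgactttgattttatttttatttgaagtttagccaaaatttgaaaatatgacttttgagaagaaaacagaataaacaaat
ARR6: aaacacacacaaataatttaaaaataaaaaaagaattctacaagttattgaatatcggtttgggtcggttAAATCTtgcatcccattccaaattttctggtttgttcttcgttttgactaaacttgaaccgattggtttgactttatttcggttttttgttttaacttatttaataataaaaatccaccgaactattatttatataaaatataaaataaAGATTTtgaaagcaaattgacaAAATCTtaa
ARR8: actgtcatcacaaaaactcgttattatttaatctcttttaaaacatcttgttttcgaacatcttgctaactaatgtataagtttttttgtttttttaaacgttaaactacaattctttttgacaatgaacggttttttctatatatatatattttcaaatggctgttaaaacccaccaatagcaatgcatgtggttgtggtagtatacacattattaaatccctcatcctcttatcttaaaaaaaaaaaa
ARR9: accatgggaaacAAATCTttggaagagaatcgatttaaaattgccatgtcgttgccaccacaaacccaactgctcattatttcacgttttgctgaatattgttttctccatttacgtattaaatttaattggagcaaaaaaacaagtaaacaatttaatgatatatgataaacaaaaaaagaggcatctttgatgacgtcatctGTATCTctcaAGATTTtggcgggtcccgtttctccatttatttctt
CKX7: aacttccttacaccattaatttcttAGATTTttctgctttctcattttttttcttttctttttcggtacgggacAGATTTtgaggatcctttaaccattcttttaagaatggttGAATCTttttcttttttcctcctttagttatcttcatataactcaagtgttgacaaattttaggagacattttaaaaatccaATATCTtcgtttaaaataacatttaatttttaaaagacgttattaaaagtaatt

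Matches to this motif were common in promoters generally. In the window from 250 bases before to 50 after the start, 28 of 34 members (82.4%) held at least 1 match, against 19918 of 27443 protein-coding genes (72.6%). By class, 9 of 10 type-A ARRs, 5 of 5 type-B ARRs, 2 of 3 receptors, 4 of 5 phosphotransfer proteins, 7 of 7 oxidases and 1 of 4 LOG genes held a match. The palindrome AGATCT, which reads the same on both strands and was counted once, occurred in 4 of 34 members and in 7.38% of all promoters. Matches may overlap, as they do in AHP5 and CKX1. In the 250 bases before the start alone, 23 of 34 members (67.6%) held a match, against 66.3% of all protein-coding genes, so the shares there are close. In these bases 6 of the 9 called genes and 17 of the 25 other members held a match, and the uncalled ARR7 and ARR16 held 4 each. In the longer window ARR7 held 7 matches, ARR16 held 6, and ARR6 and the untested CKX2 held 5 each, while ARR4, AHK2, AHP6, LOG3, LOG4 and LOG8 held none. A match in these windows is a description of letters, not of binding.

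None of the 5 type-B ARRs among the members passed a q under 0.01, although all 5 fold changes were positive. At an unadjusted p under 0.05 there were 3, ARR10 (0.60, p = 0.00635, q = 0.0139), ARR2 (1.00, p = 0.00850, q = 0.0179) and ARR1 (0.59, p = 0.00990, q = 0.0205) in the authors' deposited table. These q-values from Cuffdiff lie just above the threshold. ARR12 (AT2G25180), which with ARR1 (AT3G16857) and ARR10 (AT4G31920) carries much of the cytokinin response of roots, had 0.11 in the authors' deposited table (q = 0.675). ARR11 (AT1G67710) had the highest finite fold of any member, 5.57 in the authors' deposited table, but with p = 0.246 and q = 0.310 it was not called. The positive sign did not hold for the whole class. Outside the members, ARR14 was the 1 tested type-B ARR of 6, with -3.13 in the authors' deposited table (q = 0.0513), also uncalled. The assembled loci of ARR1, ARR2 (AT4G16110) and ARR12 reach beyond their annotated genes, so these values are uncertain. ARR1 also overlaps AT3G16860 on the opposite strand. The locus of ARR1 ends at 5762235 and its annotated gene at 5759443, and for ARR2 these ends are 9119365 and 9116164. For ARR12 the excess is small, with a locus start of 10724289 against 10724301.

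Large fold changes without a call were a general feature of the table. All 4 members with a finite log2 fold change of at least 4 in size, ARR15, ARR11, LOG3 (AT2G37210) and AHP6, were uncalled. Over all tested loci with finite folds of that size, 1035 of 1582 (65.4%) were uncalled. Whether such folds rest on low condition values was not examined.

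**Figure D2:**
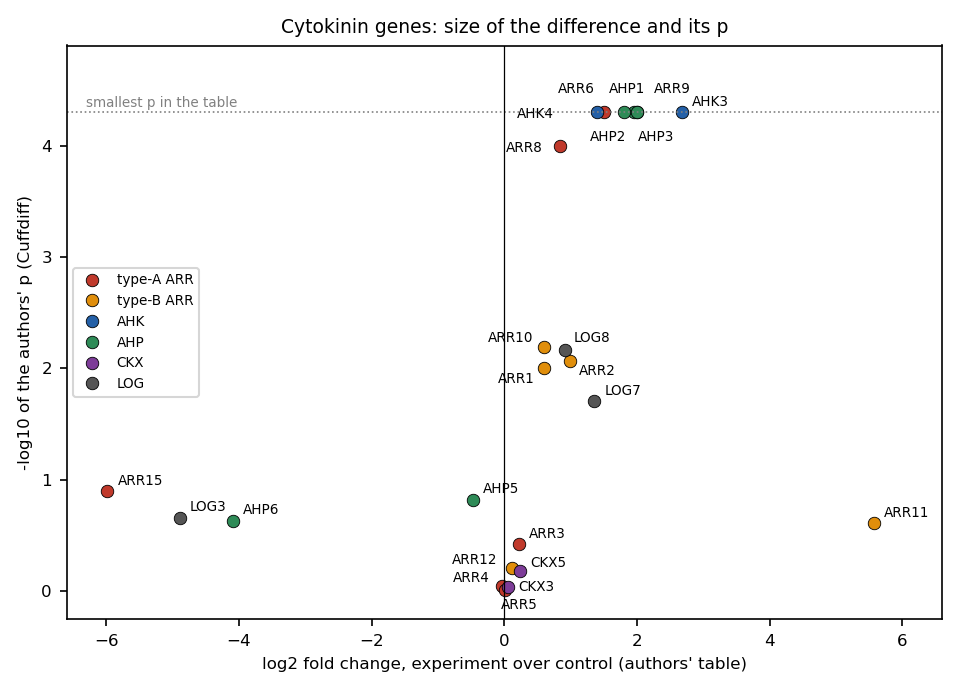
Log2 fold change of experiment over control (x axis) against -log10 of the authors' p (y axis) for the 24 tested cytokinin genes with a finite fold, coloured by class. The genes called higher lie at or near the dotted line of the smallest p, 5e-05, with folds from 0.84 to 2.68, and the 4 genes with the largest folds in size, ARR15, ARR11, LOG3 and AHP6, lie at p-values from 0.126 to 0.246.

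Cytokinin oxidases break down the hormone, and only 3 of the 7 were tested. CKX7 (AT5G21482), the cytosolic member of the family, was the 1 member called lower (p = 5e-05, q = 0.000177), and in the authors' deposited table its value under the experiment condition was listed at 0. CKX3 (AT5G56970) had 0.05 (q = 0.930) and CKX5 (AT1G75450) 0.23 (q = 0.707) in the authors' deposited table, neither called. CKX1 (AT2G41510, -0.76), CKX4 (AT4G29740, 1.43) and CKX6 (0.56) were given folds in the authors' deposited table without a test, and CKX2 (AT2G19500) was written with a fold of 0 without a test. CKX7 lies on chromosome 5 from 7226727 to 7230210 (TAIR10), within the annotated protein-coding gene of 4 exons and with no overlapping gene. The loci of CKX2, CKX5 and CKX6 (AT3G63440) reach beyond their annotated genes.

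No LOG gene passed the threshold on the q from Cuffdiff, and 2 had an unadjusted p under 0.05. LOG8 (AT5G11950, 0.92, p = 0.00680, q = 0.0148) and LOG7 (1.35, p = 0.0195, q = 0.0368) had positive folds in the authors' deposited table with q-values between 0.01 and 0.05. LOG3, which acts with LOG4 (AT3G53450) in vascular tissue, had -4.89 in the authors' deposited table (p = 0.218, q = 0.285). LOG4 went untested, with a 0 listed for the experiment condition in the authors' deposited table. The locus of LOG7 (AT5G06300) reaches beyond the annotated gene.

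The isoform table gives a second reading of the same libraries, so it is no independent support. It lists 94 isoforms of all 34 genes, of which 60 isoforms of 31 genes were tested. Of the tested isoforms 12 were called higher and 2 lower, against 9.93% called higher and 6.90% called lower over 32807 tested isoforms. In either direction 14 of the 60 tested isoforms were called, against 16.8% of all tested isoforms. The called isoforms belong to 12 genes, and no share over all genes was counted for this. Of the 9 genes called by locus, 8 had a called isoform, and ARR6 was the exception.

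In AHK3, AHK4 and the carriers the called isoforms had the sign of the gene values. AHK2 differed, as given above, since its called isoform and its joined locus had opposite signs. AHK3 had 1 isoform called higher at 3.07 and AHK4 had 1 at 1.78 in the authors' deposited table of isoforms, each with q = 0.000428. Of the 6 isoforms of AHK4 only 2 were tested. The untested isoforms of AHK4 had -10.56 and -7.14 or were listed at 0 in the experiment condition. Those of AHK3 went both ways, 1 at 11.30 and 1 listed at 0 in the experiment condition. Both tested isoforms of AHP3 were called, at 1.85 (q = 0.000428) and 2.02 (q = 0.00434) in the authors' deposited table of isoforms. AHP1 and AHP2 each had 1 called isoform, at 1.96 and 1.87 in the authors' deposited table of isoforms. All 3 tested isoforms of AHP6 had negative folds in the authors' deposited table of isoforms, from -3.71 to -1.99, and none was called.

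Among the response regulators the isoforms added calls and removed 1. ARR9 had 2 isoforms called higher, at 2.06 (q = 0.000428) and 2.27 (q = 0.00905), and ARR8 had 1 at 1.04 (q = 0.000428) in the authors' deposited table of isoforms. The 3 tested isoforms of ARR6 had 1.95 (q = 0.0287), 1.19 (q = 0.439) and 0.35 (q = 0.576) in the authors' deposited table of isoforms, and none was called. The type-B regulators ARR2 and ARR10, uncalled in the gene table, each had a single isoform that was called higher, at 1.27 (q = 0.000428) and 0.67 (q = 0.00404) in the authors' deposited table of isoforms. For ARR2 the isoform locus ends with the annotated gene, whereas the locus of the gene table reaches beyond it. For ARR6 and ARR8 the reverse holds: the isoform loci reach beyond the annotated genes, whereas the loci of the gene table lie within them.

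For the metabolic enzymes the isoforms gave 1 call that is uncertain. CKX7 had a single isoform, listed at 0 in the experiment condition and called lower (q = 0.000428) in the authors' deposited table of isoforms. An isoform named as LOG4 was called lower at -1.82 (q = 0.000428) in the authors' deposited table of isoforms. It belongs to an assembled locus that also holds an isoform named as AT3G53430, while the other isoforms of LOG4 form a separate locus. The value may therefore not be that of LOG4. LOG8 had 5 tested isoforms with folds of both signs, 4 positive and 1 negative, none called.

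**Figure D3:**
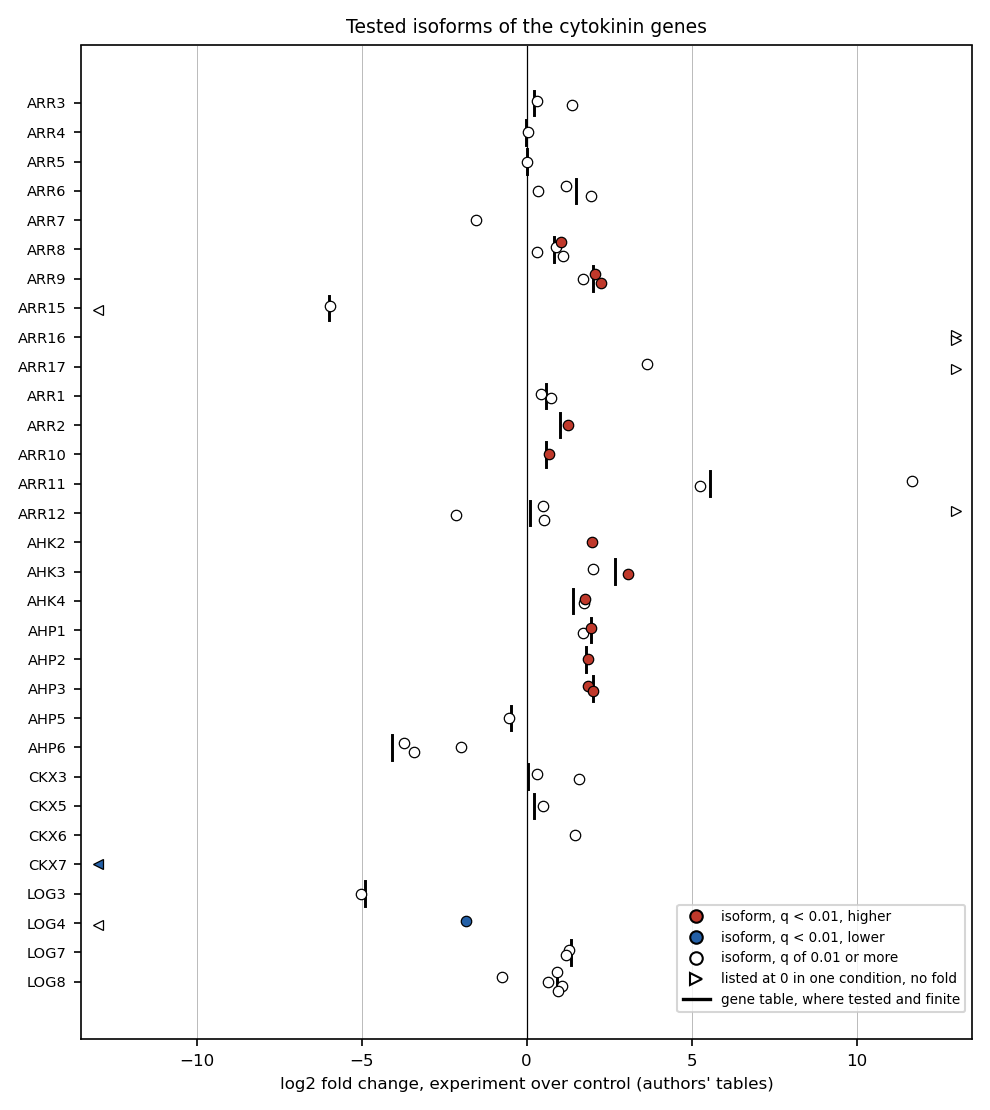
Log2 fold change of experiment over control (x axis) for each tested isoform (circles) of 31 cytokinin genes (y axis), with the value of the gene table as a black bar where it was tested and finite. Filled symbols passed a q under 0.01 and triangles at the edge are isoforms listed at 0 in 1 condition; the 12 isoforms called higher belong to receptors, phosphotransfer proteins and ARRs.

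Other genes of the pathway, from a list of 47 loci, moved both ways. Of 24 tested genes 7 were called higher, 6 were called lower and 11 were not called, so that 54.2% were called against 43.6% of all tested loci. The list covers synthesis, activation, transport, conjugation and further signalling genes. Of its loci 45 had a row of their own, and the glucosyltransferases UGT76C1 and UGT76C2 share 1 joined locus (0.43, q = 0.424 in the authors' deposited table).

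Of 9 IPT genes 5 were tested, of which 1 was called higher and 1 lower. IPT3, a phloem enzyme that makes the hormone from adenine nucleotides, was listed at 0 in the control condition (q = 0.000177) in the authors' deposited table and was called higher. IPT7 (8.52, q = 0.0931) and IPT5 (7.81, q = 0.306), of the same type, were not called in the authors' deposited table. IPT9, a tRNA-modifying enzyme that gives rise to cis-zeatin, was called lower at -1.78 (q = 0.000917) in the authors' deposited table, and its relative IPT2 had -0.52 (q = 0.300). CYP735A2, a hydroxylase that makes trans-zeatin forms, was listed at 0 in the control condition (q = 0.000177) in the authors' deposited table, and CYP735A1 had 4.50 (q = 0.198).

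Transport genes made up 5 of the 13 calls. ABCG14, an exporter that loads cytokinin for transport to the shoot, had 3.09 in the authors' deposited table and was called higher. A further row for the same gene and span, untested, had the opposite sign, at -1.15 in the authors' deposited table. The locus of ABCG14 reaches beyond the annotated gene. ENT3, a nucleoside transporter, had 3.42, AZG1, a purine transporter, 2.47 and PUP14, which takes up cytokinin, 2.00 in the authors' deposited table, all called higher with q = 0.000177. AZG2, the relative of AZG1, was called lower at -3.53 (q = 0.000177) in the authors' deposited table. ROCK1, a nucleotide sugar transporter of the endoplasmic reticulum, had -0.29 (q = 0.466) in the authors' deposited table.

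Among response genes the cytokinin response factors (CRFs), transcription factors of the AP2/ERF family, were lower where they passed. CRF4 had -4.04, CRF3 -2.07 and CRF2 -1.38 in the authors' deposited table, each with q = 0.000177. CRF1 (-2.26, q = 0.0917) and CRF6 (2.19, q = 0.0306) were not called in the authors' deposited table. SHY2, an Aux/IAA repressor that ARR1 activates where division ends, was called higher at 3.45 (q = 0.000177) in the authors' deposited table. UGT85A1, which glucosylates trans-zeatin, was called lower at -4.27 (q = 0.00132) in the authors' deposited table.

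The remaining tested genes of the list were uncalled. LOG2, for which the authors' deposited table lists a 0 under the control condition, did not pass (q = 0.167). ARR14, a further type-B regulator, had -3.13 (q = 0.0513) in the authors' deposited table. The histidine kinase AHK5 had 0.69 (q = 0.0976) and KMD2, an F-box protein that targets type-B ARRs for degradation, -0.68 (q = 0.0787) in the authors' deposited table.

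**Figure D4:**
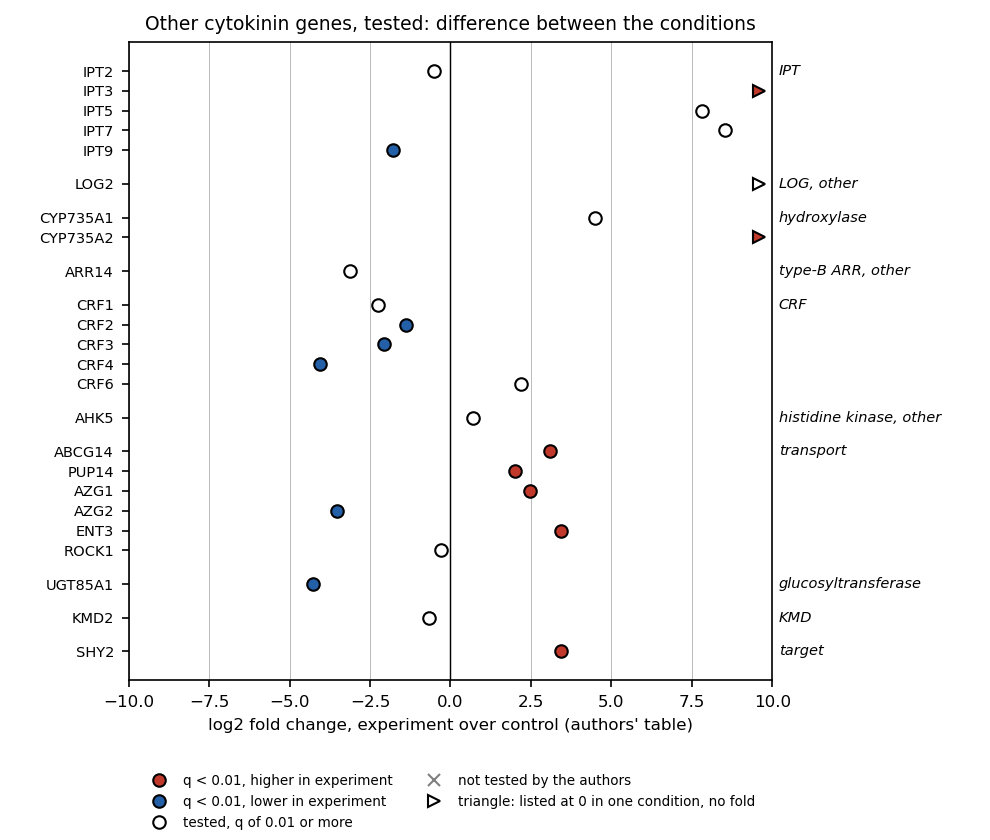
Log2 fold change of experiment over control (x axis) for the 24 tested genes of the wider cytokinin list (y axis, by role). Filled symbols passed a q under 0.01 and triangles at the edge are genes listed at 0 in 1 condition; transport genes lie mostly to the right, and the 3 called CRFs lie to the left, from -4.04 to -1.38.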

How the data were processed

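RNA-seq libraries of 2 root zones, 3 per zone, were grouped by sample title. The submitters' processing notes name TopHat, Cufflinks and Cuffdiff and the build TAIR10, with versions not given in the sources used here. Per the labels' protocols, cDNA was made with a SMART-Seq kit, which does not mark strand. The authors' deposited tables give, per gene locus or isoform, a log2 fold change, a test statistic (a score from Cuffdiff), and a p-value and q-value, per the file headers. Each table also has 2 columns with a value per condition, which were left aside because no label ties a condition to a zone. The deposited q was checked and equals a Benjamini-Hochberg adjustment over tested rows (relative difference of at most 4.9e-06 in the gene table).

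Calls were counted at a q under 0.01, with Python 3.11.15, pandas 2.3.3 and statsmodels 0.14.6. Infinite folds and spreadsheet errors, which stand for minus infinity, are genes listed at 0 in 1 condition. No test was added, since no value per library was analysed. Whether the replicates came from separate plants is not stated, so p-values may measure technical spread. Gene names, annotated genes and promoters came from RefSeq TAIR10.1, where all 34 symbols matched their loci. The spans printed for called members are those of the authors' assembled loci, which can start or end elsewhere than the annotated gene. File coordinates count starts from 0 and are written from 1. Members and lists were chosen with earlier results of these data known. All members are named. Of the wider list every tested gene is named. The written rule, every called gene and 3 uncalled genes ranked by condition value, was not applied, since the condition values were left aside. The planned comparison of protein sequences was not made.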

Additional observations from a re-analysis of the deposited data

How the results depend on the processing

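At a q under 0.05 the members called higher in the experiment condition numbered 13 in place of 8, with 3 type-B ARRs and 2 LOG genes in place of none, and none further was called lower. With the Benjamini-Yekutieli adjustment under 0.01, or without loci that reach beyond the annotated gene, each count of members and of the wider list stayed within 1.5 times. In an alternative chosen after seeing the data, a member with a row of its own counted as called when at least 1 isoform passed. AHK2 was thus left out, although its 1 tested isoform was called higher. This alternative gave 2 members called lower in place of 1, with 1 LOG gene among them, and 2 type-B ARRs called higher in place of none. In these last 2 cases the cause was not tested. The LOG gene is LOG4, and as given above the value of its called isoform may not be that of LOG4. No share over all genes was counted under this alternative, so its counts have no background beside them. Centring on the median of the tested loci with finite folds (-0.08) turned the sign of ARR4 alone, to 0.05. The motif occurred in 23 of 34 members (67.6%) in the 250 bases before the start alone, against 66.3% of all protein-coding genes. A filter on low values, other pseudocounts, sums of isoform values and the order of levels were not run. They need the condition values, which the tables hold but which were left aside. No replicate could be left out. No paired analysis was possible because the tables hold no value per library.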
